A study of Mus musculus with 12 samples.

Results

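The miRNAs described here are those whose registry number is 1000 or more. miRNA numbers are given in the order in which sequences are registered, so a high number marks late registration. Most such miRNAs were found by deep sequencing, and because many are scarce and known from few species they are often called young. Evolutionary age was not measured here, so they are called high-numbered miRNAs below. The series profiled miRNAs in kidneys of wild-type mice without treatment, taken on postnatal day 0 or on postnatal day 8, with 6 libraries at each age. The title of the series concerns miR-409-3p and miR-431-5p and the renal mineralocorticoid receptor, and neither miRNA is high-numbered. The deposited table lists 1652 mature miRNA names, of which 911 have a number of at least 1000. After 11 names from the imprinted Dlk1-Dio3 region were set aside, 900 candidates were left. A candidate was kept when its CPM (counts per 1000000 miRNA reads of the library) was at least 1 in at least 6 of the 12 libraries. This kept 87 names, or 9.67% of the candidates, from 76 hairpin numbers. The other 813 candidates were seen in at least 1 library but stayed under the minimum. Of the 741 listed names with a lower number or from the let-7 family, 474 passed it (64.0%). With 3 passing names from the Dlk1-Dio3 region, 564 names were tested in all.

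A typical miRNA is cut from a hairpin in a longer transcript, first by the nuclear complex of Drosha and Dgcr8 and then by Dicer in the cytoplasm, and one arm (5p or 3p) is loaded into an Argonaute protein. The seed, bases 2 to 8 of the mature miRNA, pairs with target mRNAs. Some miRNAs take other routes. A mirtron is a short intron whose splicing yields the hairpin without Drosha. Some small nucleolar RNAs (snoRNAs) and small Cajal body RNAs (scaRNAs), which guide chemical changes on ribosomal and spliceosomal RNA, are also cut into pieces of miRNA size. Late-registered names hold many of these forms beside conventional hairpins.

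RefSeq (GRCm38.p6) gave a mature sequence for 77 of the 87 names. Those that the results turn on are printed 5′ to 3′ with the seed in capitals. The first 7 are shown because their hairpins lie over snoRNA or scaRNA genes.
miR-1839-5p: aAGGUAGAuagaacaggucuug
miR-1843a-5p: uAUGGAGGucucugucugacu
miR-1843b-5p: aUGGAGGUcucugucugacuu
miR-3068-5p: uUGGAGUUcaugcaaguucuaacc
miR-3535: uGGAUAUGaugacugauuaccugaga
miR-5121: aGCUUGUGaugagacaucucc
miR-1291: aUGGCUCUuacugaagacuagcaguu

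The next 6 are shown because their level or, for miR-1981, the ratio of their arms differed between the ages, and the last of them lies opposite an older hairpin.
miR-1983: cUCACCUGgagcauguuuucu
miR-1251-5p: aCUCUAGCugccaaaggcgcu
miR-3099-3p: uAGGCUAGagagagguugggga
miR-1981-5p: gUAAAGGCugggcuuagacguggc
miR-1981-3p: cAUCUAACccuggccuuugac
miR-3074-5p: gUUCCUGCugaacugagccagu

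These 2 are shown because they are alike within the mature sequence, although their hairpins lie at different places on chromosome 11.
miR-3968: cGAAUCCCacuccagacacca
miR-5100: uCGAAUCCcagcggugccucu

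The last 8 are shown because 1 or a few libraries held far more of them than the others did.
miR-6238: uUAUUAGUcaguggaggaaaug
miR-6239: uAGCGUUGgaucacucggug
miR-6240: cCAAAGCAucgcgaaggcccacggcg
miR-1195: uGAGUUCGaggccagccugcuca
miR-1187: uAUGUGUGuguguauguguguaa
miR-3470b: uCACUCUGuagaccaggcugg
miR-2137: gCCGGCGGgagccccagggag
miR-12188-5p: uAGAAGAGcuuucgcuggcccaga

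The seeds of the high-numbered miRNAs were mostly their own. None of the 77 shared its seed with another of them. Only miR-6240 had the seed of a tested older name, miR-330-3p, which is 1 of 77 (1.30%), whereas 128 of 402 older names with a sequence (31.8%) shared a seed with another older name. miR-1843a-5p and miR-1843b-5p share a run of 20 of their 21 bases, but the run starts 1 base apart in them, so their seeds differ by that shift. miR-3968 and miR-5100 share a run of 9 bases that includes GAAUCCC, again at a different distance from the 5′ end. Searched as written in the mature RNAs, GAAUCCC stood in 2 of 77 high-numbered names, in miR-191-5p alone among 402 older names, and in 3 of all 1679 mature sequences (0.179%). The median GC content was 52.2% in the high-numbered names and 45.5% in the older ones, and the median length was 22 bases in both. At 85.7%, miR-2137 had the highest GC content among them.

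Positions were available for 80 names. A hairpin counted as exonic when any annotated transcript of the gene had an exon over it, even where other transcripts have an intron there. Lying over a snoRNA or scaRNA gene, or filling an intron as a mirtron does, took precedence over this. Introns of protein-coding genes held 32 of them, exons of protein-coding genes 12, snoRNA or scaRNA genes 12, and 16 lay in no annotated gene of their own strand. Some of those 16 lie opposite a gene of the other strand, such as miR-3968 opposite Trim80 and miR-6239 opposite Gpc6. A further 5 names, from the hairpins of miR-1981 (in Marc2), miR-1982 (Oaz1), miR-6944 (Dbn1) and miR-6958 (Dennd6b), filled an intron with both hairpin ends within 5 bases of its ends, as a mirtron does. For some names, such as miR-3102-3p and miR-12202-3p, only the mature stretch had a position, so this rule could not be applied to them. miR-1251-5p lay within an intron of Rmst, a long non-coding RNA, miR-1895 in an exon of a non-coding gene, and miR-3074-5p opposite miR-24. Mature sequences of 12 of 77 names (15.6%) matched 1 of 3885 annotated small RNA transcripts without a mismatch, against 1 of 402 older names (0.249%), miR-664-3p in Snora36b. These matches were miR-1839-5p, miR-1843a-5p, miR-1843a-3p, miR-1843b-5p, miR-3068-5p, miR-3068-3p, miR-3069-5p, miR-3069-3p, miR-1291, miR-3535 and miR-5121 in scaRNA or snoRNA genes, and miR-3470b in a transcript of the class misc_RNA. The matches in scaRNA or snoRNA genes follow from the positions above and are not a separate result. Reads of a miRNA and of other fragments of such a transcript cannot be told apart in these values. The classes searched were snoRNA, scaRNA, snRNA, ribosomal RNA, misc_RNA, and mitochondrial ribosomal and transfer RNA. Nuclear transfer RNAs and any transcript missing from these classes were not searched. A name without a match may therefore still match such an RNA.

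The day 0 libraries held 3.37 to 9.05 M miRNA reads (M, 1000000) and the day 8 libraries 5.16 to 11.8 M, recovered from the CPM steps. Day 0 replicate 6 and day 8 replicate 3 were the shallowest of their ages. The 8 kidney tubule markers were abundant in every library, summing to 98920 to 113105 CPM at day 0 and 113441 to 133317 CPM at day 8. Their sum hides opposite moves. From day 0 to day 8 the median rose for miR-192-5p (3085 to 11053 CPM), miR-194-5p (1770 to 5846 CPM) and miR-30a-5p (6832 to 17202 CPM). It also rose for miR-204-5p, miR-200b-3p and miR-429-3p. The median fell for miR-10a-5p (60446 to 47835 CPM), the largest part of the sum, and miR-196a-5p (12352 to 7570 CPM). The 5 striated muscle markers summed to 498 to 1990 CPM at day 0 and 405 to 502 CPM at day 8, with miR-133b-3p at 0 in some day 8 libraries. The 2 liver markers summed to 481 to 3296 CPM at day 0 and 15.2 to 333 CPM at day 8, with miR-122-3p at 0 in some day 8 libraries. The 3 erythroid markers spanned 332 to 970 CPM at day 0 and 411 to 840 CPM at day 8. The part of other cell types in the results below was not tested. In whole kidney, fewer cells of a type and less miRNA per cell cannot be told apart.

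The high-numbered miRNAs were scarce in neonatal kidney. Together they made up 0.200% to 0.680% of the reads at day 0, with a median of 0.217%, and 0.159% to 0.207% at day 8, with a median of 0.175%. The highest day 0 value came from replicate 6, whose summed level of 6800 CPM stood far above the 1995 to 2447 CPM of the other day 0 libraries. Without miR-6238, miR-6239 and miR-6240, the sum was 2179 ± 178 CPM at day 0 and 1762 ± 157 CPM at day 8 (SD, n = 6 each). The median name had a mean of 3.79 CPM, against 55.4 CPM for the older tested names. Only 7 names averaged at least 100 CPM, 12 lay between 10 and 100 CPM, and 68 were below 10 CPM. In all 12 libraries, 44 names reached 1 CPM. A level of 1 CPM was reached at day 0 only by 4 names and at day 8 only by 0. Just inside the minimum lay miR-1187 and miR-6951-5p, with a sixth-highest CPM of 1.08 and 1.10, and just outside it miR-3073b-5p and miR-3473b, each at 0.995.

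**Figure D1:**
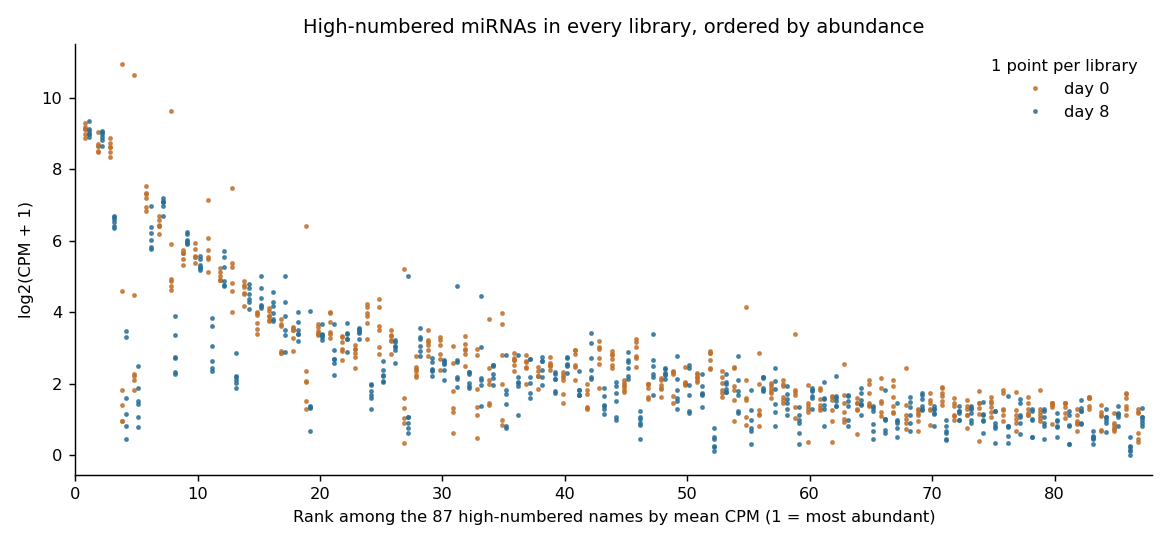
Level of each of the 87 high-numbered names as log2(CPM + 1) (vertical axis) against its abundance rank (horizontal axis), with 1 point per library, day 0 in orange and day 8 in blue. Only the first 7 names average at least 100 CPM, and single day 0 points stand far above the rest for miR-6238, miR-6239 and miR-6240.

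By number, 31 names lay from 1000 to under 2000, 1 from there to under 3000, 30 from there to under 4000, 4 from there to under 6000, 16 from there to under 10000, and 5 at 10000 or more. The median of their means was 4.18 CPM under 2000, 3.77 CPM from 3000 to under 4000, 2.82 CPM from 6000 to under 10000 and 1.89 CPM at 10000 or more. The 12 names over snoRNA or scaRNA genes had a median of 16.1 CPM and the 32 in introns of protein-coding genes 1.89 CPM. These medians describe the names that passed the minimum and no others.

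The most abundant name was miR-1839-5p, cut from a gene on chromosome 7 that the annotation gives as a scaRNA (chr7:81529916-81529988, plus strand, GRCm38.p6). It lay at 468 to 625 CPM at day 0, with a median of 564 CPM, and at 480 to 651 CPM at day 8, with a median of 523 CPM. Its mean was 551 ± 55.9 CPM at day 0 and 540 ± 60.1 CPM at day 8 (SD, n = 6 each), a log2 change of -0.028 (SE 0.10, adjusted p = 0.813, limma). The ages overlapped almost entirely, and it ranked 112th of the 564 tested names. With TMM factors, which rescale libraries on the bulk of names, its log2 change was 0.36 (adjusted p = 0.00571, limma).

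miR-3968, on chromosome 11 opposite Trim80, was next. It ranged from 356 to 530 CPM around a median of 402 CPM at day 0, and from 403 to 542 CPM around 490 CPM at day 8. The means of 413 ± 62.2 and 484 ± 51.5 CPM (SD, n = 6 each) gave a log2 change of 0.23 (SE 0.11, adjusted p = 0.0724, limma). The ages overlapped, also without day 0 replicate 6, which held the 530 CPM. Without that library the log2 change was 0.31 (adjusted p = 0.0142, limma). Without day 8 replicate 1 it also passed, at 0.29 (adjusted p = 0.0362, limma). With TMM factors the change was 0.62 (adjusted p = 0.000211, limma).

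Between the ages, 11 of the 87 names were higher at day 8 and 30 were lower by limma at an adjusted p under 0.05, and 46 were not called. Over all 564 tested names, 93 were higher (16.5%) and 272 lower (48.2%). In 7 names called higher the ages did not overlap at all, against a background of 10.8% of tested names, and in 16 called lower, against 35.1%. Within bands of mean CPM, the shares higher and lower under 10 CPM (68 names) were 11.8% and 35.3%, against 10.7% and 44.2% of all tested names. From 10 to 100 CPM (12 names) they were 16.7% and 33.3%, against 14.0% and 53.8%. At 100 CPM or more (7 names) they were 14.3% and 28.6%, against 23.7% and 48.4%. The median log2 change was -0.20 in the high-numbered names and -0.34 over all tested names. Under 10 CPM these medians were -0.21 and -0.34. With TMM factors the median over all names was -0.0034, and 26 high-numbered names were higher and 18 lower. The matching shares over all names were 30.3% higher and 34.2% lower. Of the 41 calls, 29 held in the same direction with TMM factors, 12 were lost and 15 others were gained, and none was called in the opposite direction. Among those lost, the log2 change of miR-3535 changed sign. CPM is a share of the library, so each change is a change of share. The minimum bears on these counts too: 17 names reached 1 CPM in all day 0 libraries but not in all day 8 libraries, and 8 the reverse. The 4 names that reached 1 CPM at day 0 only are among the 30 called lower and the 16 without overlap. Other called names also met the minimum through the age where they are high, such as miR-3099-3p, miR-1291 and miR-1949 (lower) and miR-3069-3p (higher).

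**Figure D2:**
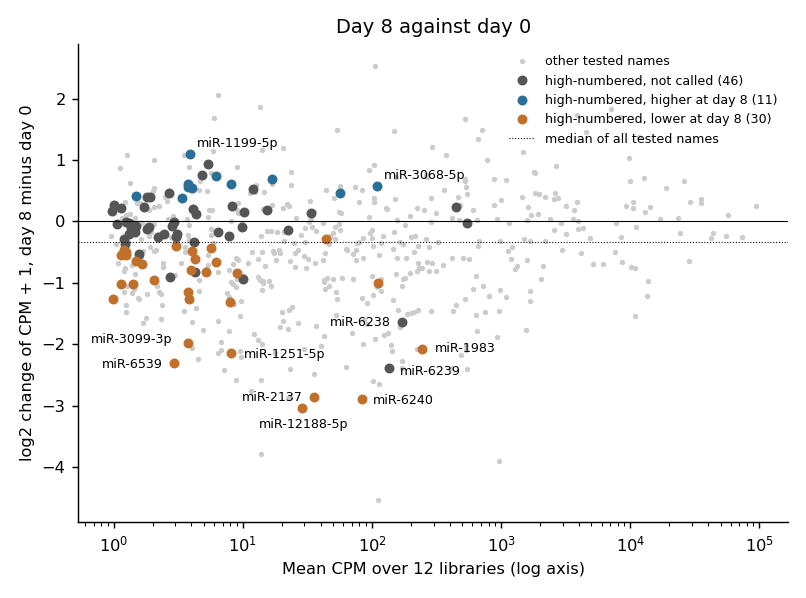
Log2 change of CPM + 1 from day 0 to day 8 (vertical axis) against mean CPM on a log axis (horizontal axis) for 564 tested names, other names in light grey. High-numbered names are blue when called higher (11), orange when called lower (30) and dark grey when not called (46), and the dotted line is the median of all tested names at -0.34.

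miR-1983, on chromosome 13 between annotated genes (chr13:21896918-21897049, minus strand), showed the clearest fall among the abundant names. It lay at 327 to 468 CPM at day 0, with a median of 395 CPM, and at 80.7 to 103 CPM at day 8, with a median of 93.8 CPM. Every day 0 library was above every day 8 library. The means were 394 ± 49.2 and 92.8 ± 9.14 CPM (SD, n = 6 each), 4.25-fold higher at day 0, with a log2 change of -2.07 (SE 0.10, adjusted p = 1.21e-09, limma). It was also among the steadiest names, with a mean within-age coefficient of variation (CV, the SD over the mean) of 11.2%. With TMM factors the log2 change was -1.68. Whether its hairpin lies over a nuclear transfer RNA gene was not examined.

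miR-1198-5p, in an intron of Gripap1 on the X chromosome, had 113 to 185 CPM at day 0, with a median of 151 CPM, and 53.9 to 124 CPM at day 8, with a median of 68.5 CPM. Its mean fell from 147 ± 26.6 to 75.4 ± 26.2 CPM (SD, n = 6 each), a log2 change of -0.999 (SE 0.19, adjusted p = 0.000333, limma). Day 8 replicate 3, the shallowest day 8 library, held the 124 CPM and alone made the ages overlap. Its other arm, miR-1198-3p, had means of 1.64 and 0.849 CPM and lost its call when any 1 of 9 libraries was left out.

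miR-1251-5p lies within Rmst, which is best known from neural cells. It ranged from 8.60 to 17.8 CPM around a median of 14.2 CPM at day 0 and from 1.46 to 2.97 CPM around 2.34 CPM at day 8. No library of one age reached the other. Its mean fell from 13.9 ± 3.30 to 2.35 ± 0.569 CPM (SD, n = 6 each), with a log2 change of -2.14 (SE 0.18, adjusted p = 9.15e-08, limma). The Rmst transcript also holds Mir135a-2, 64955 bases away, and miR-135a-5p, which a second locus can also make, fell from 856 ± 67.7 to 215 ± 55.8 CPM (SD, n = 6 each; log2 change -2.02, adjusted p = 4.47e-08, limma). Of the neuron markers, miR-124-3p was at 0.157 to 1.19 CPM at day 0 and 0 to 0.255 CPM at day 8, while miR-9-5p was at 3024 to 5830 and 3198 to 4480 CPM. All 3 neuron markers together summed to 3050 to 5856 CPM at day 0 and 3220 to 4525 CPM at day 8.

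Smaller separated falls with a mean of at least 5 CPM were seen in miR-5100, miR-3081-3p and miR-3064-5p. miR-5100, in an intron of Mief2, ranged from 6.06 to 19.9 CPM around 10.7 CPM at day 0 and from 3.14 to 5.24 CPM around 3.72 CPM at day 8 (log2 change -1.31, SE 0.24, adjusted p = 0.000228, limma). Its day 0 values spread widely, and the highest came from replicate 6. miR-3968, with which it shares GAAUCCC, was not called, and the difference between the names was not tested.

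miR-3081-3p, in an intron of Boc, a co-receptor for hedgehog ligands, had 4.67 to 9.06 CPM around 6.79 CPM at day 0 and 2.72 to 4.04 CPM around 3.48 CPM at day 8 (log2 change -0.82, SE 0.15, adjusted p = 0.000243, limma). The ages came close but did not meet, and with upper quartile factors the change was -0.35 (adjusted p = 0.0564, limma). miR-3064-5p, in an exon of the RNA helicase gene Ddx5, had 5.81 to 10.4 CPM around 7.75 CPM at day 0 and 3.67 to 5.62 CPM around 4.26 CPM at day 8 (log2 change -0.67, SE 0.14, adjusted p = 0.000816, limma). Its separation was narrow, and with upper quartile factors the change was -0.18 (adjusted p = 0.242, limma).

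miR-3074-5p is made from the strand opposite both miR-24 loci (chr13:63301199-63301283 and chr8:84208825-84208907, minus strand). It had 4.40 to 6.56 CPM around a median of 5.71 CPM at day 0 and 0.980 to 3.10 CPM around 2.08 CPM at day 8. Every day 0 library was above every day 8 library. Its mean fell from 5.54 ± 0.832 to 2.03 ± 0.886 CPM (SD, n = 6 each; log2 change -1.15, SE 0.19, adjusted p = 9.61e-05, limma). miR-24-3p, made from both loci on the other strand, stood at 4085 ± 296 and 3722 ± 186 CPM (SD, n = 6 each) and was not called (log2 change -0.13, adjusted p = 0.0974, limma). miR-24-2-5p rose from 0.987 ± 0.333 to 3.12 ± 1.65 CPM (SD, n = 6 each; log2 change 0.99, adjusted p = 0.000723, limma).

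Several scarce names also fell without overlap, and those in this paragraph were chosen after their values were seen. Of these, miR-6539, miR-6399, miR-3095-3p and miR-1306-3p reached 1 CPM in all 6 day 0 libraries and in 0 day 8 libraries. They passed the minimum only through the age where they are high, so their adjusted p and separation are given as description. The same holds for miR-3099-3p, which reached 1 CPM in 6 day 0 libraries and 3 day 8 libraries, and for miR-1949, with 6 and 2. miR-6539 fell from 5.52 ± 0.992 to 0.323 ± 0.216 CPM (SD, n = 6 each; log2 change -2.30, adjusted p = 9.84e-09, limma), resting on 228 reads over the day 0 libraries and 19 over the day 8 libraries. miR-3099-3p, in an intron of the imprinted gene Usp29, fell from 6.60 ± 1.54 to 0.914 ± 0.331 CPM (SD, n = 6 each; log2 change -1.98, adjusted p = 1.29e-07, limma). miR-6399, in an intron of the translation factor gene Eif4g3, fell from 1.81 ± 0.475 to 0.165 ± 0.145 CPM (SD, n = 6 each; log2 change -1.26, adjusted p = 3.03e-06, limma), and 1 day 8 library had none. The log2 scale with 1 CPM added understates the change of names this low. miR-3095-3p, in an intron of the lysophosphatidic acid receptor gene Lpar1, fell from 1.88 ± 0.279 to 0.415 ± 0.114 CPM (SD, n = 6 each; log2 change -1.02, adjusted p = 3.70e-06, limma). miR-1306-3p comes from an exon of Dgcr8, which encodes the RNA-binding partner of Drosha. It fell from 2.25 ± 0.439 to 0.595 ± 0.239 CPM (SD, n = 6 each; log2 change -1.03, adjusted p = 1.73e-05, limma). Its partner arm miR-1306-5p had 3.29 ± 0.618 and 2.82 ± 1.503 CPM (SD, n = 6 each) and was not called (log2 change -0.25, adjusted p = 0.348, limma), and the difference between these arms was not tested. Of the 11 other names called lower, miR-7689-3p had the largest log2 change (-1.27, adjusted p = 9.65e-05, limma), and the rest lay between -0.96 in miR-1949 and -0.41 in miR-3110-5p.

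**Figure D3:**
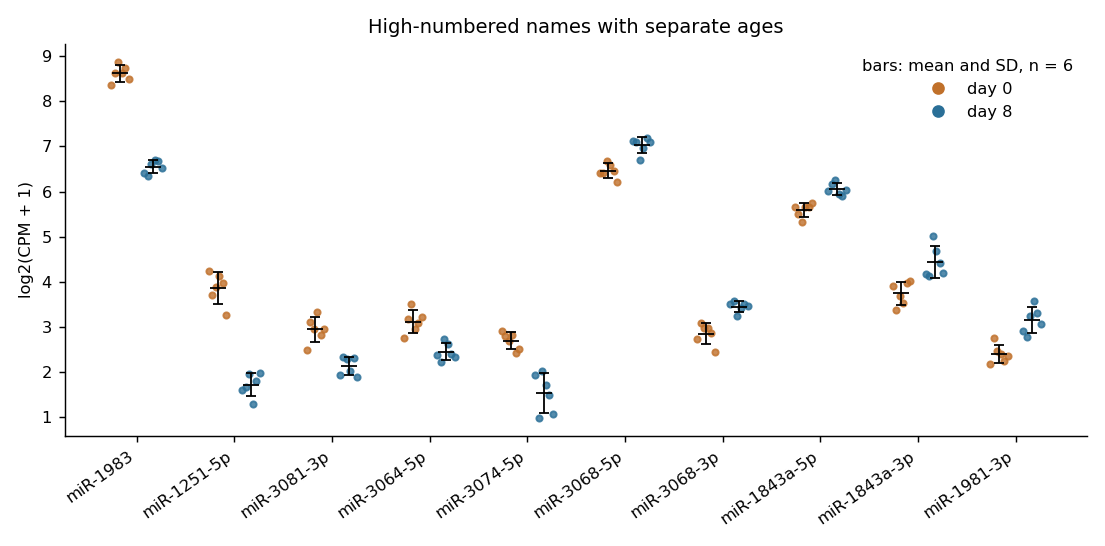
Levels as log2(CPM + 1) (vertical axis) of 10 high-numbered names whose ages do not overlap, with 1 point per library, day 0 in orange and day 8 in blue, and bars for the mean and SD of the 6 libraries. The 5 names on the left fell at day 8, miR-1983 the most clearly, and the 5 on the right rose.

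The rises were smaller, and 6 of the 11 were names over snoRNA and scaRNA genes. Of the 12 names over such genes, those 6 were higher at day 8 and 2 were lower, with a median log2 change of 0.30, beside 16.5% higher and 48.2% lower over all tested names. The 6 are arms of the hairpins of miR-1839, miR-1843a, miR-3068 and miR-3069, and arms of 1 hairpin are not independent. Under TMM scaling 8 of the 12 rose and 0 fell, and the median was 0.59, beside 30.3% higher and 34.2% lower over all tested names. miR-3068-5p, from a hairpin on chromosome 12 that is annotated as a snoRNA, had 72.7 to 102 CPM around a median of 85.7 CPM at day 0 and 103 to 145 CPM around 136 CPM at day 8. The highest day 0 library lay just under the lowest day 8 library. The mean rose from 87.6 ± 10.2 to 130 ± 14.9 CPM (SD, n = 6 each), with a log2 change of 0.57 (SE 0.11, adjusted p = 0.000361, limma). Its other arm, miR-3068-3p, had 4.45 to 7.55 CPM around 6.56 CPM at day 0 and 8.53 to 10.9 CPM around 10.2 CPM at day 8 (log2 change 0.61, SE 0.13, adjusted p = 0.000676, limma). Both arms thus rose without overlap, and their ratio did not pass the test (log2 change of 5p over 3p -0.037, SE 0.12, adjusted p = 0.801, limma).

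miR-1843a lies over Scarna3b on chromosome 12 (chr12:80391613-80391677, minus strand). Its 5p arm had 39.2 to 53.1 CPM around a median of 49.3 CPM at day 0 and 59.0 to 75.6 CPM around 63.9 CPM at day 8 (log2 change 0.46, SE 0.10, adjusted p = 0.00123, limma). Its 3p arm had 9.44 to 15.1 CPM around 13.1 CPM at day 0 and 16.4 to 31.4 CPM around 18.9 CPM at day 8 (log2 change 0.69, SE 0.17, adjusted p = 0.00283, limma). Neither arm overlapped between the ages. miR-1843b-5p over Scarna3a on chromosome 1, with 20 bases in common, had 17.1 to 28.2 CPM around 23.8 CPM at day 0 and 16.0 to 26.8 CPM around 20.9 CPM at day 8. It was not called (log2 change -0.14, SE 0.15, adjusted p = 0.434, limma), and its ages overlapped. The mature miR-1843b-5p sequence also occurs in Scarna3b, so reads of these names may be shared between the loci.

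The remaining names of this class were mixed. miR-1839-3p rose from 2.61 ± 0.462 to 4.85 ± 2.50 CPM (SD, n = 6 each; log2 change 0.61, adjusted p = 0.0288, limma), a call lost without any 1 of 3 libraries. miR-3069-3p, over Scarna13, rose from 1.14 ± 0.323 to 1.84 ± 0.396 CPM (SD, n = 6 each; log2 change 0.41, adjusted p = 0.0241, limma), a call lost without either of 2 libraries, while miR-3069-5p had 1.33 and 1.28 CPM. miR-5121, over Snord33, had means of 14.2 and 16.5 CPM and was not called. miR-1291, over Snora34, fell from 2.06 ± 0.832 to 0.940 ± 0.443 CPM (SD, n = 6 each; log2 change -0.64, adjusted p = 0.0108, limma), and with TMM factors the change was -0.42 (adjusted p = 0.0720, limma). A level of 1 CPM was reached by miR-1291 in 6 day 0 libraries and 1 day 8 library, and by miR-3069-3p in 4 and 6. Each met the minimum through the age where it is high, so their calls are given as description. miR-3535, over the snoRNA Gm24148, had 40.4 to 60.2 CPM around 46.3 CPM at day 0 and 35.3 to 46.4 CPM around 38.1 CPM at day 8. It was called lower (log2 change -0.28, SE 0.12, adjusted p = 0.0459, limma), but the call was lost without any 1 of 9 libraries, and with TMM factors the change was 0.10 (adjusted p = 0.460, limma).

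The mirtron-like miR-1981 in Marc2 differed between its arms. miR-1981-3p had 3.53 to 5.82 CPM around a median of 4.23 CPM at day 0 and 5.88 to 10.9 CPM around 7.96 CPM at day 8 (log2 change 0.75, SE 0.15, adjusted p = 0.000597, limma). miR-1981-5p had 28.9 to 36.8 CPM around 30.3 CPM at day 0 and 25.8 to 51.8 CPM around 32.8 CPM at day 8 (log2 change 0.13, SE 0.17, adjusted p = 0.517, limma). The ages of the 3p arm nearly touched, and those of the 5p arm overlapped widely, with the 51.8 CPM in day 8 replicate 3. The log2 ratio of 5p to 3p, each plus 1 CPM, fell from 2.62 ± 0.176 to 2.001 ± 0.240 (SD, n = 6 each), a difference of -0.62 (SE 0.14, adjusted p = 0.000861, limma). It was the 1 changed ratio among 3 high-numbered hairpins with both arms at a mean of at least 5 CPM, and 72 of all 112 such hairpins changed (64.3%). The other mirtron-like names were not called, except miR-6944-3p, which fell from 5.23 ± 0.754 to 3.28 ± 1.57 CPM (SD, n = 6 each; log2 change -0.61, adjusted p = 0.0233, limma) and lost its call without day 0 replicate 4. It was also not called with TMM factors (-0.31, adjusted p = 0.241, limma), upper quartile factors, edgeR or DESeq2.

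The largest rise by log2 change, also named after its values were seen, was outside these classes and below 5 CPM on average. miR-1199-5p, in an exon of 2210011C24Rik, had 1.47 to 2.96 CPM around a median of 1.91 CPM at day 0 and 3.43 to 9.70 CPM around 4.91 CPM at day 8, with no overlap. Its log2 change was 1.09 (SE 0.23, adjusted p = 0.000710, limma). The other rises were miR-3105-5p (0.56), miR-7661-3p (0.55) and miR-12191-3p (0.37) on the log2 scale, and these names were chosen after their values were seen.

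Among names in no annotated gene of their own strand, several owed their level to a single library. miR-6238, on chromosome 7, had 1994 CPM in day 0 replicate 6 and 0.934 to 23.1 CPM in the other day 0 libraries, while the day 8 libraries ranged from 0.358 to 10.2 CPM around 1.64 CPM. miR-6239, on chromosome 14 opposite Gpc6, had 1587 CPM in the same library, 2.54 to 21.4 CPM in the others of day 0, and 0.735 to 4.65 CPM at day 8 around 1.79 CPM. In both names the second-highest day 0 value came from replicate 2. Their mean levels of 170.6 and 136 CPM therefore describe 1 library, and their day 0 median was 2.09 and 3.73 CPM. Neither was called by limma with all libraries (log2 change -1.65, SE 1.42, adjusted p = 0.321 for miR-6238; -2.39, SE 1.20, adjusted p = 0.0948 for miR-6239; limma). Without day 0 replicate 6 the log2 changes were -0.14 (adjusted p = 0.858, limma) and -1.05 (adjusted p = 0.0483, limma). With all libraries, edgeR with TMM factors called both lower, with log2 changes of -6.01 (adjusted p = 0.0150) and -6.61 (adjusted p = 0.00474).

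miR-6240, on chromosome 5, had 787 CPM in day 0 replicate 6 and 23.8 to 59.5 CPM in the other day 0 libraries, against 3.85 to 13.9 CPM around 5.69 CPM at day 8. Here the ages were separate even among the other libraries. Its log2 change was -2.89 (SE 0.71, adjusted p = 0.00230, limma) with all libraries and -2.12 (adjusted p = 3.06e-05, limma) without that one. The same library led in miR-1195 (84.8 CPM against 1.44 to 4.09), miR-1187 (35.9 CPM against 0.267 to 2.04) and miR-7033-5p (16.9 CPM against 0.801 to 3.30). The last of these names was chosen after its values were seen.

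Counted over all 564 tested names, 8 had a CPM of at least 5 in day 0 replicate 6 and over 5 times the median of the other day 0 libraries, and 7 of them were high-numbered. miR-690, with 243 CPM, was the other. In day 8 replicate 3, 6 names met this rule and 5 were high-numbered: miR-1187 (31.2 CPM), miR-1195 (15.3 CPM), miR-3470a (20.9 CPM), miR-3470b (25.6 CPM) and miR-6238 (8.92 CPM). In day 0 replicate 2, 3 of 5 such names were high-numbered, with miR-12188-5p at 179 CPM. Day 0 replicate 6 held the highest day 0 value of 28 high-numbered names (32.2%), against 18.4% over all tested names. Day 8 replicate 3 held the highest day 8 value of 39 of them (44.8%), against 36.7%. In the former library miR-451a, an erythroid marker, stood at 620 CPM, with a day 0 median of 177 CPM, whereas miR-144-3p was at 162 CPM, under its day 0 median of 213 CPM. Day 0 replicate 2 held the highest day 0 sums of the liver (3296 CPM), neuron (5856 CPM), leukocyte (4441 CPM) and endothelium (115855 CPM) markers. The highest day 0 sums of the kidney tubule and striated muscle markers were in replicate 1, and that of the erythroid markers in replicate 6. The part of depth or of other cells in the high values of single libraries was not tested.

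miR-2137 and miR-12188-5p fell strongly with a wide spread at day 0. miR-2137, in an intron of Zfp185 on the X chromosome, had 34.2 to 141 CPM around a median of 49.0 CPM at day 0 and 4.11 to 13.4 CPM around 6.28 CPM at day 8 (log2 change -2.86, SE 0.33, adjusted p = 2.94e-06, limma). miR-12188-5p, in an exon of the chloride transporter gene Clcn7, had 15.1 to 179 CPM around 32.1 CPM at day 0 and 2.71 to 6.28 CPM around 3.41 CPM at day 8 (log2 change -3.05, SE 0.44, adjusted p = 2.31e-05, limma). Day 0 replicate 2 was the highest for both, and the ages stayed apart in both. Without it the changes were -2.60 for each, with adjusted p of 2.02e-06 for miR-2137 and 6.29e-07 for miR-12188-5p by limma.

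**Figure D4:**
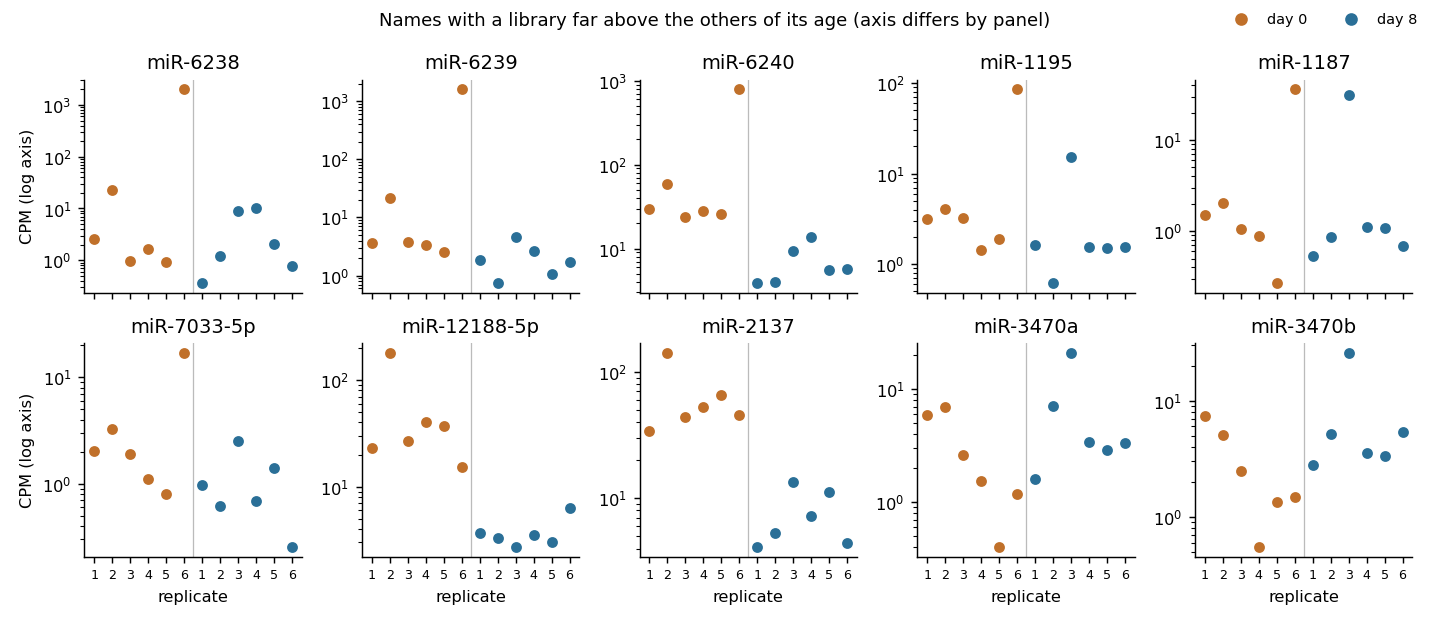
CPM on a log axis that differs by panel (vertical) in each of the 12 libraries (horizontal, replicates 1 to 6 of day 0 in orange and of day 8 in blue) for 10 high-numbered names. Day 0 replicate 6 stands highest in the first 6 panels. Day 8 replicate 3 is the highest day 8 library for miR-6239, miR-1195, miR-1187, miR-7033-5p, miR-2137, miR-3470a and miR-3470b.

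The spread between libraries of an age followed abundance. The median within-age CV was 31.9% in the high-numbered names and 20.1% over all tested names. Within bands of mean CPM these medians lay closer: 32.9% and 32.4% under 10 CPM, 21.8% and 18.9% from 10 to 100 CPM, and 12.9% and 14.3% at 100 CPM or more. Set against the CV that counting alone gives, the median ratio was 1.54 in the high-numbered names and 2.83 over all names. For 43 of the 87 (49.4%) the CV was under 1.5 times the counting CV, against 23.0% of all tested names. For 12 of them (13.8%) the CV was over 5 times the counting CV, against 36.0% of all tested names. The counting CV is larger in scarcer names, so these ratios follow abundance as well. Under 10 CPM its median was 23.1% in the high-numbered names and 22.3% over all tested names, beside the median CVs of 32.9% and 32.4%.

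Among names with a mean of at least 10 CPM, the steadiest were miR-1843a-5p with a CV of 10.2%, miR-1839-5p with 10.6% and miR-1983 with 11.2%. At the other end stood miR-1195 with 179%, miR-6238 with 177% and miR-6239 with 153%. miR-1187, below that level at a mean of 6.43 CPM, had a CV of 207%, with high values in day 0 replicate 6 and day 8 replicate 3. Its log2 change of -0.17 (SE 0.84, adjusted p = 0.868, limma) ran from -0.86 to 0.52 as single libraries were left out. miR-6951-5p, at the edge of the minimum, had 0.297 to 1.44 CPM at day 0 and 0.772 to 1.52 CPM at day 8 and was not called (log2 change 0.18, SE 0.19, adjusted p = 0.415, limma).

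**Figure D5:**
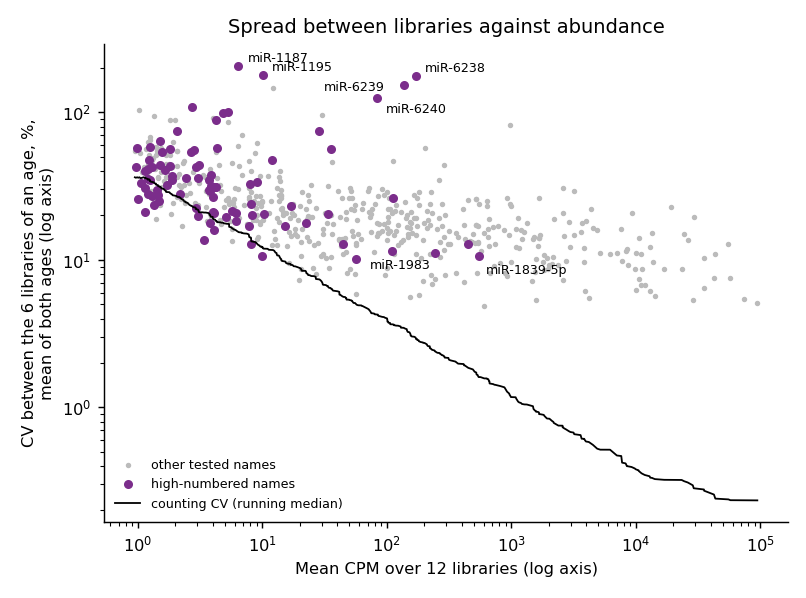
CV between the 6 libraries of an age, averaged over both ages, in percent on a log axis (vertical) against mean CPM on a log axis (horizontal), for 87 high-numbered names in purple and the other tested names in grey. The line is the running median of the counting CV, and most purple points lie among the grey ones, with miR-1187, miR-1195, miR-6238, miR-6239 and miR-6240 far above.

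Of the 41 calls, 34 held when any single library was left out. The 7 others were miR-3535, miR-1194, miR-1198-3p, miR-6944-3p, miR-1839-3p, miR-3110-5p and miR-3069-3p. A further 10 names that were not called passed when some library was left out. Under upper quartile factors the direction of miR-1839-5p and miR-3535 changed as it did with TMM factors, while miR-1983, miR-1251-5p, miR-3074-5p, miR-3068-5p, miR-1843a-5p and miR-1981-3p kept their direction and their call.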

How the data were processed

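miRNAs of day 0 and day 8 kidneys, 6 libraries each, were read from QIAseq libraries, per the labels' protocols, and the submitters' processing notes name FastQC. For the aligner, build, miRBase release and molecular identifiers, the entry is: not given in the sources used here. The authors deposited 1 table in CPM, each library summing to 1000000. Whole reads were recovered from its steps, with 100% of values whole within 0.001 read, and intervals from reads cover counting error only. Nothing says that libraries came from separate animals, so p-values measure only the spread between these samples. No library copied another.

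The design gave a branch for counts (edgeR) and one for CPM (limma), and the latter was used. limma 3.58.1 under R 4.3.3 was run with a trend on log2(CPM + 1), for names with CPM of at least 1 in 6 libraries, adjusted by Benjamini-Hochberg over 564 names at 0.05. log2 changes are day 8 minus day 0. edgeR 4.0.16 and DESeq2 1.42.0 on recovered reads, TMM and upper quartile factors, other filters, pseudocounts of 0.1 and 5, and left-out libraries were alternatives. Arm ratios were tested by limma for hairpins with both arms at 5 CPM or more. The fit was tested on simulated data. Positions and sequences came from RefSeq GRCm38.p6 and GENCODE by name.

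The members and lists were chosen with earlier results of these data known. Named with values were the 12 most abundant names, up to 8 largest rises and falls without overlap at 5 CPM or more, the 3 highest and 3 lowest CVs at 10 CPM or more, names opposite an older hairpin, 2 names on each side of the minimum, and arms past the ratio test.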

Additional observations from a re-analysis of the deposited data

Results flagged for a closer look

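Of 50 groups of 6 libraries tested for a sample far from the others, 12 were marked, and 7 of the 12 were day 0 replicate 6. Chance marks about 1 in 20 groups, but several of these names were chosen for a wide spread or a large change, so that share is no fair comparison here. In that library miR-6238 had 1994 CPM, miR-6239 1587 CPM, miR-6240 787 CPM, miR-1195 84.8 CPM and miR-1187 35.9 CPM, each far above the other day 0 libraries. miR-3968 had 530 CPM there, against 356 to 418 CPM in the others. The summed level of the high-numbered names was 6800 CPM there, against 1995 to 2447 CPM.

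Day 0 replicate 2 stood apart with 141 CPM of miR-2137, against 34.2 to 66.2 CPM, and with 179 CPM of miR-12188-5p, against 15.1 to 40.8 CPM. Day 8 replicate 3 stood apart with 31.2 CPM of miR-1187 and 15.3 CPM of miR-1195. Day 8 replicate 6 stood apart with 6.28 CPM of miR-12188-5p, against 2.71 to 3.67 CPM.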

How the results depend on the processing

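With single libraries left out, 38 to 43 high-numbered names were called, against 41, with 10 to 13 higher and 27 to 31 lower, and the single changed arm ratio stayed at 1 to 1. With CPM of at least 1 in all 12 libraries, 44 names were tested and 27 called, 10 higher and 17 lower, beside 88 higher and 224 lower of all 451 names tested. Names called higher were 26 with TMM factors, 30 with upper quartile factors, 25 with edgeR and 25 with DESeq2, against 11, and names called lower were 18, 14, 20 and 18, against 30. Over all 564 names the counts higher and lower were 171 and 193 with TMM factors, 213 and 157 with upper quartile factors, 173 and 195 with edgeR, and 180 and 189 with DESeq2, against 93 and 272. These alternatives rescale the libraries, and the median over all names moved from -0.34 to -0.0034 with TMM factors. DESeq2 gave no adjusted p to 5 names. With a minimum of 2 CPM on each arm, 2 of 5 hairpins changed, miR-1839 being the added one (-0.64, adjusted p = 0.0139, limma), and with a minimum of 20 CPM no high-numbered hairpin was left to test.

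Among the 24 names chosen by the naming rule, the direction turned for 3. Names outside the rule turned as well, such as miR-1843b-5p, from -0.14 to 0.24 with TMM factors. The log2 change of miR-1187 was 0.045 with TMM factors, 0.14 with upper quartile factors and 0.20 with edgeR, and -0.86 to 0.52 with single libraries left out. That of miR-1839-5p was 0.36, 0.54, 0.36 and, with DESeq2, 0.39, and -0.084 to 0.0094 with single libraries left out. That of miR-3535 was 0.10, 0.28, 0.10 and, with DESeq2, 0.14. No paired analysis was possible because the labels give the ages no shared replicate numbers. The counting CV is largest in the 68 names under 10 CPM, with a median of 23.1%, beside a median within-age CV of 32.9%.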
